A study of Mus musculus with 18 samples.

Results

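The ID proteins and the inhibitory SMADs were described here through 5 genes, Id1, Id2, Id3, Smad6 and Smad7, chosen by name out of 22852 genes counted in mouse bone marrow-derived macrophages (BMDMs). The choice was made with results of these data known, so the levels and fold changes of the 5 genes are given as a description, without p-values. All 5 genes passed the filter on low counts, which kept 11305 genes for the fit. The study profiled mRNA by RNA-Seq in 18 samples, 3 biological replicates in each of 6 groups, from female C57BL/6 mice whose age is not given in the sources used here. It asked how LPS (lipopolysaccharide, the cell wall component of Gram-negative bacteria) and carboplatin, a platinum drug that crosslinks DNA, alter the response of macrophages to a second LPS dose.

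The unstimulated group received neither agent. LPS-primed BMDMs received LPS at 100 ng/ml for 24 h. LPS-tolerant BMDMs received the same priming and then LPS at 10 ng/ml for 3 h. LPS-stimulated BMDMs received a single dose of 10 ng/ml, which the study's scheme puts at 3 h. The remaining groups, LPS-primed with carboplatin and LPS-tolerant with carboplatin, also received 25 µM carboplatin, given 1 h before the first LPS dose, and carboplatin without LPS was not among the groups. All groups were grown in medium conditioned by L929 cells. At the second dose the old medium was replaced with fresh medium containing LPS, so the second dose and the medium change cannot be told apart in LPS-tolerant BMDMs, and for the single dose the methods do not say whether medium was replaced. The methods name no carboplatin in the fresh medium of the second dose. Below, the second dose under carboplatin means that both groups compared had received the drug before priming. LPS-primed and LPS-stimulated BMDMs differed from each other in both dose and time. The methods do not say whether bone marrow of several mice was pooled.

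ID proteins are helix-loop-helix proteins without a DNA-binding basic region. They pair with E proteins (Tcf3, Tcf4, Tcf12) and with other basic helix-loop-helix factors and keep them off DNA. In many cell types Id1, Id2 and Id3 are direct targets of bone morphogenetic proteins (BMPs) through SMAD1 and SMAD5, and Smad6 and Smad7 are induced by BMPs or TGF-β and feed back on the same receptors: SMAD6 acts mainly on BMP signalling, and SMAD7 on both branches. In myeloid cells Id2 is known for its part in dendritic cell and lymphoid lineage choice, and other signals besides BMPs also reach these genes.

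On GRCm39, the build the reads were mapped to, GENCODE places Id1 at chr2:152566218-152579544 on the plus strand, Id2 at chr12:25143798-25147282 on the minus strand, Id3 at chr4:135870808-135873066 on the plus strand and Smad6 at chr9:63860341-63929793 on the minus strand. Long noncoding RNAs on the opposite strand overlap Id1 (Gm75058), Id2 (Gm36287 and Gm59395) and Id3 (Gm57159). None of these RNAs has a row in the count files, and the strand setting of the counting is not given in the sources used here, so their reads and those of the Id genes cannot be told apart. Smad6 and Smad7 overlap no annotated gene.

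The promoters of Id2, Id3 and Smad6 are shown because all were higher after the second LPS dose and are textbook SMAD targets; 3 of the 5 genes had an entry in the RefSeq promoter table, which is on GRCm38.p6. Each line gives the 250 bases before the transcription start, 5′ to 3′ on the gene's strand, with capitals marking the SMAD half-site GTCT or its reverse complement AGAC and the GC-rich SMAD1/5 site GGCGCC. Id2 is at chr12:25096093-25096342 on the minus strand, Id3 at chr4:136143572-136143821 on the plus strand and Smad6 at chr9:64022060-64022309 on the minus strand.
Id2: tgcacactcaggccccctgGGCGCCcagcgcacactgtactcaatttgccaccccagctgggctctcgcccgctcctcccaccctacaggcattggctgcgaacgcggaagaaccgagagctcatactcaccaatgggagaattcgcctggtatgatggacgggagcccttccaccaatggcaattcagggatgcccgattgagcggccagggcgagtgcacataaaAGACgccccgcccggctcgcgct
Id3: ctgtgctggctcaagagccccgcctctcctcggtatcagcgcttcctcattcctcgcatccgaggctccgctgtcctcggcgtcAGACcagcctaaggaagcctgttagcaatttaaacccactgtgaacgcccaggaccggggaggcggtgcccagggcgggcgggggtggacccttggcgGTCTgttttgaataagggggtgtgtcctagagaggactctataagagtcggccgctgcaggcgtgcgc
Smad6: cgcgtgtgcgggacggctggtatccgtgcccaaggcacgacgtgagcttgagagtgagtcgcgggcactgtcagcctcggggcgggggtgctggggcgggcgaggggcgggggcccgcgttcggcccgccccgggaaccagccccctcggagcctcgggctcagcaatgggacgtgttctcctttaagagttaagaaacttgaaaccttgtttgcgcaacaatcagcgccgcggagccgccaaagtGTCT

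The motifs were chosen after these sequences were seen, and both strands were searched. Counting back from the base before the start (−1), Id2 held AGAC at −23 to −20 and GGCGCC at −231 to −226, Id3 held AGAC at −166 to −163 and GTCT at −68 to −65, and Smad6 held GTCT at −4 to −1. GTCT or AGAC was in 82.9% of the 32851 promoter windows of this length in the table, so its presence in all 3 does not set them apart. GGCGCC, in 9.59% of windows, was in the Id2 window and not in the other 2. The Id2 window also held an E-box (CANNTG, in 66.2% of windows) at −196 to −191 and 3 matches to CCAAT or its complement (in 33.9% of windows), at −159 to −155, −120 to −116 and −76 to −72. No match to the cAMP response element TGACGTCA (in 1.55% of windows) or to the kappaB consensus (in 7.25% of windows) was in the 3 windows. None of these motif matches overlapped another.

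Each sample had 6869667 to 14708099 read pairs on genes, 53.1% to 58.5% of the pairs in its file, and no pair of samples held the same values. The summed level of 9 macrophage markers was 142700 to 305800 normalised read counts, with every marker detected in every group. Of 5 T or NK cell markers none had a read. Of 8 neutrophil markers Ly6g and Mpo were at 0 in all groups, and the list summed to 8.18 to 15.6 in unstimulated and 40.8 to 543 in LPS-treated BMDMs. Most of this was S100a8, with a mean of 10.1 in unstimulated and means of 88.1 to 321.1 in LPS-treated BMDMs. Of 7 fibroblast markers 3 to 6 were detected in a group, with sums of 0.820 to 6.36 in unstimulated and 22.7 to 88.5 in LPS-treated BMDMs. Dcn led this list in the LPS-primed and LPS-tolerant groups, with means of 28.3 to 53.0 against 0.303 in unstimulated BMDMs. Pdgfrb led it in LPS-stimulated BMDMs, with a mean of 22.6. The mast cell or basophil, dendritic cell and erythroid lists, of 4 genes each, summed to at most 13.1, 11.8 and 6.91. The neutrophil and fibroblast sums were higher in LPS-treated groups, and their part in the results was not tested. The endothelial and B cell lists also differed between groups and are given beside the results.

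The 5 genes shared a pattern of levels. In each of them the LPS-tolerant, LPS-tolerant with carboplatin and LPS-stimulated groups, sampled 3 h after a dose of 10 ng/ml, had the 3 highest means, and the unstimulated, LPS-primed and LPS-primed with carboplatin groups the 3 lowest. For Id1, Id2, Id3 and Smad6 every sample taken 3 h after a dose was above every other except that LPS-stimulated replicate 1 of Smad6, at 124.1, lay below 131.0 in an LPS-primed with carboplatin sample. Smad7 had the same order of means, with overlapping ranges between all neighbours. In bulk RNA, fewer cells of a kind and less RNA per cell cannot be told apart.

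**Figure D1:**
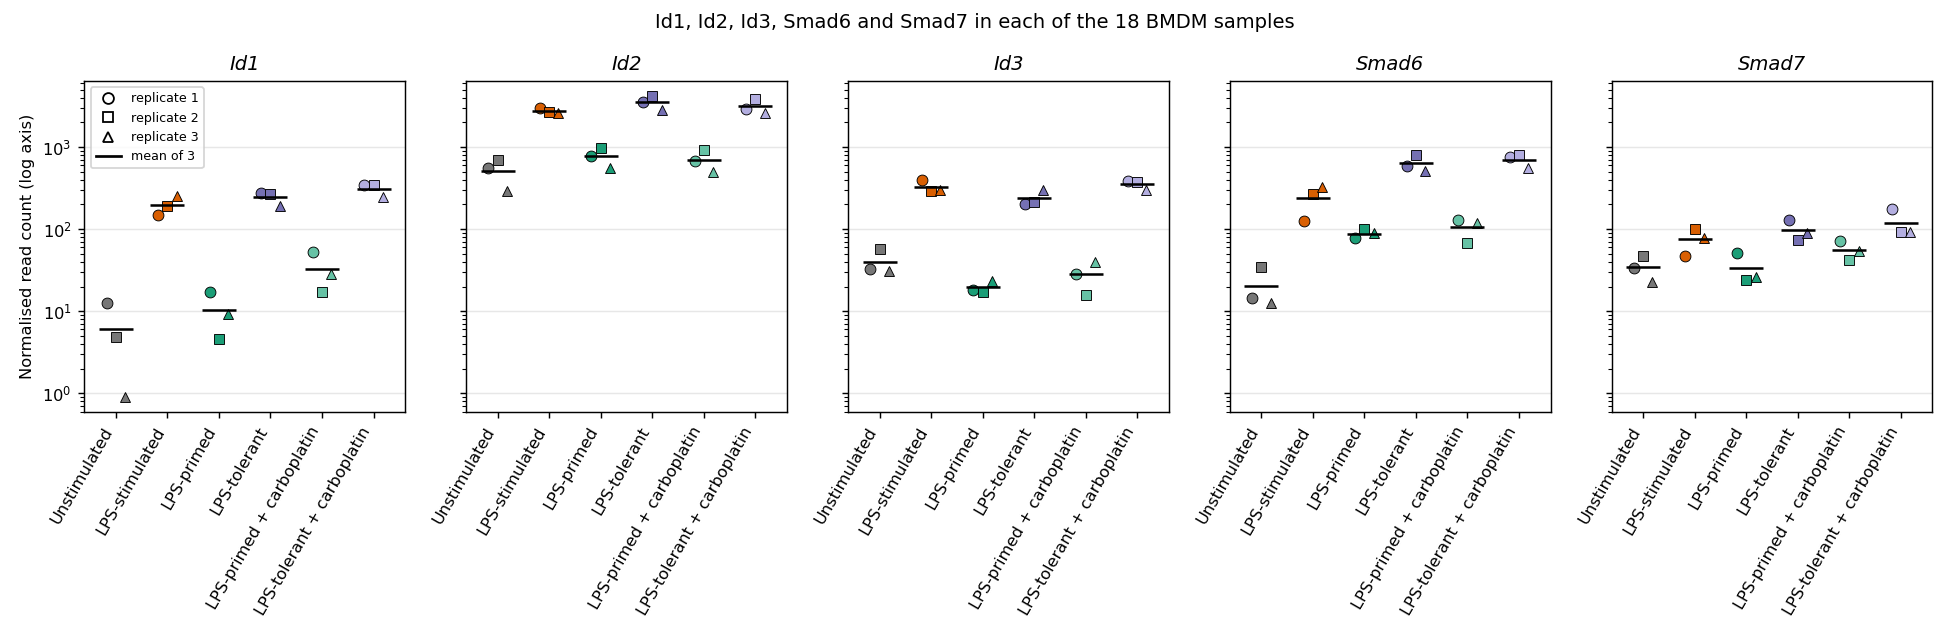
Normalised read counts (log axis) of Id1, Id2, Id3, Smad6 and Smad7 in each of the 18 samples, by group, with a symbol per replicate number and a bar at the mean of 3. The means of the groups sampled 3 h after a dose of 10 ng/ml sit above those of the other 3 groups in each panel; the samples themselves overlap for Smad7 and, through LPS-stimulated replicate 1, for Smad6.

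Id1, which in many cells follows BMP signals closely, was close to the limit of detection without a recent LPS dose. Unstimulated samples had 12.4, 4.92 and 0.909 normalised read counts (13, 6 and 1 reads), and LPS-primed samples 16.9, 4.56 and 9.38. LPS-primed samples with carboplatin had 52.7, 16.9 and 28.2. LPS-stimulated samples had 147.9, 191.0 and 251.4, a separate range far above the former 3 groups. LPS-tolerant samples had 277.3, 269.4 and 191.5, and LPS-tolerant samples with carboplatin 340.9, 340.4 and 247.2. The 3 high groups overlapped one another, in the order LPS-stimulated (196.8 ± 52.0, SD, n = 3), LPS-tolerant (246.1 ± 47.4) and LPS-tolerant with carboplatin (309.5 ± 54.0). The unstimulated mean, 6.08 ± 5.85, was 1.97% of the highest group's.

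Id2 had at least 319 reads in every sample, more than any of the other 4 genes. Its normalised read counts were 553.5, 686.0 and 289.9 in unstimulated, 771.5, 982.1 and 562.6 in LPS-primed, and 682.0, 930.5 and 493.1 in LPS-primed samples with carboplatin. These 3 groups overlapped, at 14.4% to 21.8% of the highest group mean. LPS-stimulated samples had 2980, 2689 and 2618, LPS-tolerant samples 3583, 4180 and 2860, and LPS-tolerant samples with carboplatin 2946, 3858 and 2632. The 3 high groups overlapped here too. Within each of the groups other than LPS-stimulated, replicate 2 was highest and replicate 3 lowest.

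Id3 differed from Id1 and Id2 in having its lowest group after priming. Unstimulated samples had 32.5, 57.4 and 30.9 normalised read counts, LPS-primed samples 17.99, 17.1 and 23.4, and LPS-primed samples with carboplatin 28.4, 16.0 and 40.3. The LPS-primed range lay wholly below the unstimulated one, and the carboplatin range overlapped both. LPS-stimulated samples had 394.9, 291.3 and 295.8, LPS-tolerant samples 205.1, 215.0 and 297.5, and LPS-tolerant samples with carboplatin 382.9, 375.6 and 295.9. Unlike Id1 and Id2, it had a higher mean after the single dose (327.3 ± 58.6) than after both (239.2 ± 50.7), with overlapping ranges. Id4, the fourth member of the family, had 0 reads in all 18 samples.

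Smad6, whose product restrains BMP receptors, had a graded series of levels. Its normalised read counts were 14.3, 34.4 and 12.7 in unstimulated and 77.3, 99.1 and 89.1 in LPS-primed samples, ranges that did not overlap. LPS-primed samples with carboplatin had 131.0, 68.6 and 117.7, around the LPS-primed values. LPS-stimulated samples, at 124.1, 269.8 and 330.3, spread widely, and replicate 1 was within the range of the carboplatin-treated primed samples. LPS-tolerant samples had 581.2, 808.3 and 510.6 and LPS-tolerant samples with carboplatin 760.5, 792.3 and 555.9. Every sample that had received both doses was above every sample that had received one or none. The means ran from 20.5 ± 12.1 in unstimulated through 88.5 ± 10.9 in LPS-primed and 241.4 ± 106.0 in LPS-stimulated to 633.4 ± 155.6 in LPS-tolerant BMDMs.

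Smad7 lies on the plus strand at chr18:75500374-75529006 (GRCm39). Its product acts on TGF-β and BMP receptors alike, and it had the narrowest span of the 5. Unstimulated samples had 33.5, 47.5 and 22.7 normalised read counts, LPS-primed samples 51.9, 23.9 and 26.3, and LPS-primed samples with carboplatin 71.6, 42.3 and 54.3. LPS-stimulated samples had 46.5, 101.7 and 78.9, of which replicate 1 fell inside the unstimulated range. LPS-tolerant samples had 130.4, 74.3 and 88.5, and LPS-tolerant samples with carboplatin 178.3, 91.1 and 91.9. No neighbours in its order of groups were apart. The lowest group mean, 34.0 ± 15.5 in LPS-primed BMDMs, was 28.3% of the highest.

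Levels between the genes were compared per length, as RPKM (reads scaled to library size and to the length of annotated exon sequence), with the mean and SD of 3 samples. Id2 led in every group, from 15.7 ± 6.22 RPKM in unstimulated to 109.2 ± 20.4 in LPS-tolerant BMDMs. It made up 84.6% of the RPKM of Id1, Id2 and Id3 in unstimulated and 92.5% in LPS-primed BMDMs, against 73.0% in LPS-stimulated, 78.6% in LPS-tolerant and 70.7% in LPS-tolerant BMDMs with carboplatin. In LPS-primed BMDMs with carboplatin it was 84.5% ± 7.97 (78.7% to 93.5%), a range that overlapped that of LPS-tolerant BMDMs (75.0% to 81.5%). Id1 was lowest of the 5 in unstimulated BMDMs, at 0.368 ± 0.354 RPKM, and below Id2 and Smad6 alone in LPS-tolerant ones, at 14.9 ± 2.87. Between the inhibitory SMADs the order turned: the ratio of Smad6 to Smad7 RPKM was 0.764 ± 0.198 in unstimulated, 4.03 ± 1.83 in LPS-primed, 4.24 ± 1.18 in LPS-stimulated and 9.42 ± 4.55 in LPS-tolerant BMDMs. With the longest transcript in place of all exon sequence, Id2 still led everywhere, and places among the other 4 changed in the LPS-primed group and in both LPS-tolerant groups.

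**Figure D2:**
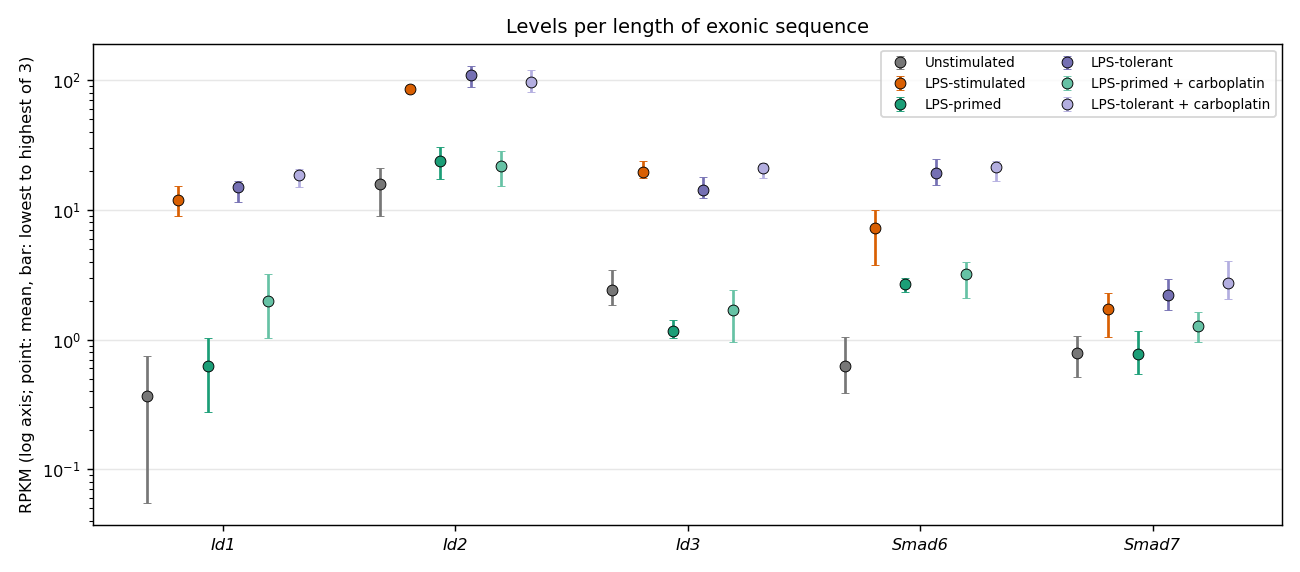
RPKM (log axis) of the 5 genes in the 6 groups, with points for the means and bars from the lowest to the highest of 3 samples. Id2 is highest in every group, and Smad6 passes from below Smad7 in unstimulated BMDMs to far above it in LPS-tolerant ones.

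The single LPS dose addressed the first response of BMDMs. The 5 genes were all higher in LPS-stimulated than in unstimulated BMDMs, and 5 of 5 lay beyond 2-fold, where 34.7% of all tested genes did so in either direction. Id1 had the largest log2 fold change, 5.01 (SE 0.53, or 32.3-fold), followed by Smad6 at 3.54 (SE 0.40), Id3 at 3.01 (SE 0.30), Id2 at 2.44 (SE 0.30) and Smad7 at 1.14 (SE 0.40). The size for Id1 rests on few reads in the unstimulated samples: the same-numbered pairs of samples differed by 3.57, 5.28 and 8.11 on the log2 scale of normalised read counts, with nothing added. All but Smad7 had groups that did not overlap, as did 26.0% of all tested genes in the higher direction. Ranked by log2 fold change among 11305 genes, Id1 was at 179, Smad6 at 344, Id3 at 435, Id2 at 567 and Smad7 at 1527. The endothelial markers summed to 69.1 to 138 in unstimulated and 148.9 to 230.3 in LPS-stimulated samples, with Tek and Emcn at 0 in both groups and Tie1 at 0 in the former. The markers of this list went both ways: Cdh5 from a mean of 2.63 to 120.2 and Kdr from 93.9 to 67.4. The B cell list, mostly Ighm, summed to 266.7 to 1560 in unstimulated and 71.6 to 271.1 in LPS-stimulated samples. The part of both lists in the higher levels was not tested.

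Priming for 24 h gave a mixed picture. Smad6 was higher in LPS-primed than in unstimulated BMDMs by a log2 fold change of 2.08 (SE 0.41, or 4.24-fold) and Id3 was lower by 1.04 (log2 fold change −1.04, SE 0.33). These 2 genes lay beyond 2-fold, against 19.6% of all tested genes, and were the only ones of the 5 whose groups did not overlap, against 18.1% of genes in the higher and 21.3% in the lower direction. Without unstimulated replicate 2 the log2 fold change of Smad6 was 2.71 and that of Id3 was −0.67. The values for Id2 (0.60, SE 0.29) and Id1 (0.78, SE 0.64) were positive with overlapping groups, that for Id1 going from 0.25 without LPS-primed replicate 1 to 1.76 without unstimulated replicate 1, and that for Smad7 was −0.03 (SE 0.41). The endothelial list summed to 35.6 to 61.5 in LPS-primed samples, below the unstimulated range, and its part was not tested. In it Kdr went from a mean of 93.9 in unstimulated to 38.4 in LPS-primed samples and Cdh5 from 2.63 to 11.8. B cell markers were also lower: that list summed to 3.42 to 12.7 in LPS-primed samples, below the unstimulated range, while Ms4a1 and Pax5 were at 0 in both groups. Their part in the lower Id3 level was not tested.

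The second LPS dose was read against priming alone. In LPS-tolerant against LPS-primed BMDMs all 5 genes were higher, beyond 2-fold, and without overlap, where 3.91% of all tested genes were beyond 2-fold higher and 12.6% were higher without overlap. The log2 fold changes were 4.55 for Id1 (SE 0.51, or 23.5-fold), 3.60 for Id3 (SE 0.32, or 12.1-fold), 2.84 for Smad6 (SE 0.37, or 7.16-fold), 2.20 for Id2 (SE 0.29, or 4.59-fold) and 1.51 for Smad7 (SE 0.40, or 2.86-fold). Each was positive in 3 of 3 same-numbered pairs. The pairs were tightest for Id2, at 2.21, 2.09 and 2.35 on the log2 scale, and Id3, at 3.51, 3.65 and 3.67. Among 11305 genes Id1 ranked 7, Id3 13, Smad6 37, Id2 73 and Smad7 198 by log2 fold change. The endothelial sum was 122.5 to 154.5 in LPS-tolerant samples, with Tek, Tie1 and Emcn at 0, and its part was not tested.

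**Figure D3:**
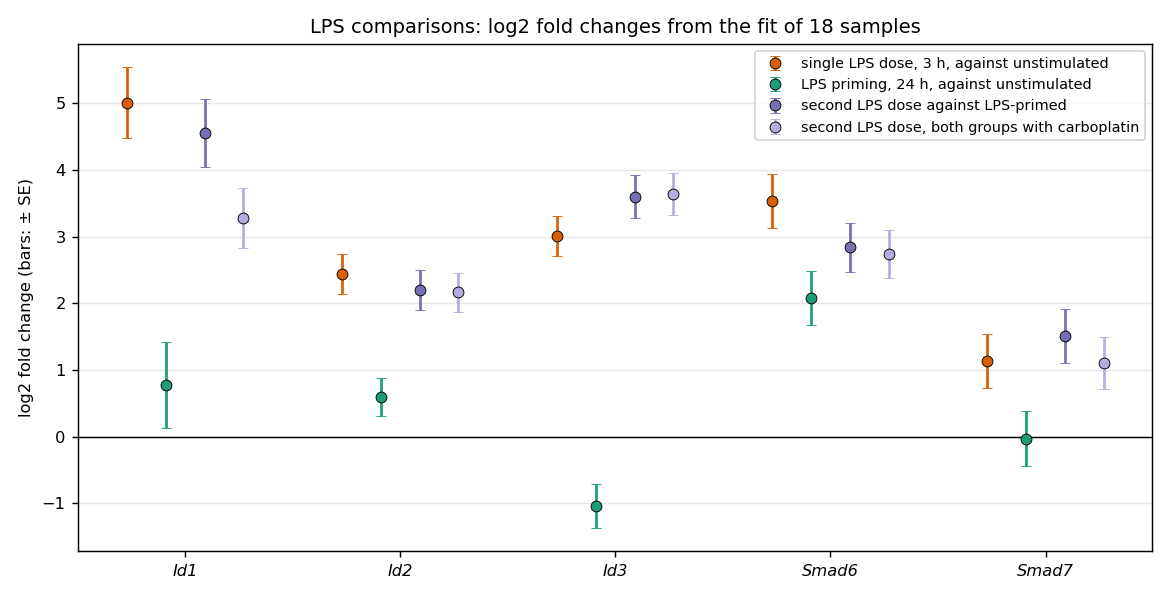
Log2 fold changes with standard errors of the 5 genes in 4 comparisons from the fit of 18 samples: a single LPS dose, priming, the second dose, and the second dose with carboplatin in both groups. The second dose stands above 1 for all 5 genes with and without carboplatin, and priming stands above 1 for Smad6 alone and below 0 for Id3 and, at −0.03, Smad7.

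The second dose was also compared with priming where both groups had received carboplatin. There the log2 fold changes were 3.64 for Id3 (SE 0.31), 3.28 for Id1 (SE 0.45), 2.74 for Smad6 (SE 0.36), 2.16 for Id2 (SE 0.29) and 1.10 for Smad7 (SE 0.39). All 5 were again beyond 2-fold (3.06% of all tested genes in this direction) and without overlap (9.94%). The values minus those without carboplatin were −0.03 for Id2, 0.04 for Id3, −0.10 for Smad6, −0.41 for Smad7 and −1.28 for Id1, and these 2 comparisons share no sample. The endothelial list summed to 32.2 to 70.2 in LPS-primed and 101.1 to 151.4 in LPS-tolerant samples with carboplatin, with Tek, Tie1 and Emcn at 0, and its part was not tested.

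Between the 2 groups without carboplatin that had just received 10 ng/ml, Smad6 had the largest difference of the 5 genes. In LPS-tolerant BMDMs it was above the LPS-stimulated level by a log2 fold change of 1.39 (SE 0.34, or 2.62-fold), without overlap and in 3 of 3 pairs, at 2.23, 1.58 and 0.63. It was the only 1 of the 5 beyond 2-fold, against 24.3% of all tested genes, and the only 1 without overlap, against 21.1% of genes in the higher direction. A count of 1 of 5 is near both shares. For the others the values were 0.36 for Id2 (SE 0.28), 0.35 for Smad7 (SE 0.38), 0.32 for Id1 (SE 0.39) and −0.45 for Id3 (SE 0.27), each with overlapping groups. With the replicate block the 95% intervals spanned 0 for Id1, Id3 and Smad7. That for Id2 ran from 0.02 to 0.62, a lower bound too near 0 to settle the sign. In LPS-stimulated replicate 1 Id1, Smad6 and Smad7 were at their group's lowest, at 147.9, 124.1 and 46.5 normalised read counts, and Id2 and Id3 at their group's highest. The B cell list summed to 5.07 to 10.4 in LPS-tolerant and 71.6 to 271.1 in LPS-stimulated samples, and the endothelial list to 122.5 to 154.5 and 148.9 to 230.3. Of the endothelial markers Cdh5 had means of 36.5 and 120.2 in these groups and Kdr 99.9 and 67.4. The part of both lists was not tested.

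The difference between the second and the first response was taken as the log2 fold change of LPS-tolerant against LPS-primed minus that of LPS-stimulated against unstimulated. It was −0.46 for Id1 (SE 0.74), −0.24 for Id2 (SE 0.40), 0.59 for Id3 (SE 0.42), −0.70 for Smad6 (SE 0.52) and 0.38 for Smad7 (SE 0.56). None of the 5 was beyond 1 in either direction, against 28.6% of all tested genes. Intervals of 95% from the SE spanned 0 for all 5 and reached from −1.92 to 1.00 for Id1 and from −1.02 to 0.55 for Id2, so differences of up to about these sizes were not resolved. With the replicate block they also spanned 0 for all 5, from −1.91 to 0.88 for Id1 and from −0.74 to 0.13 for Id2. By the edgeR test of this difference 15 of 51 other genes of the BMP and TGF-β pathways passed, against 23.8% of all tested genes. The unstimulated samples decided much of this: without unstimulated replicate 1 the value for Id1 was −1.43, and without replicate 2 those for Smad6 and Id3 were −1.32 and 0.23.

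**Figure D4:**
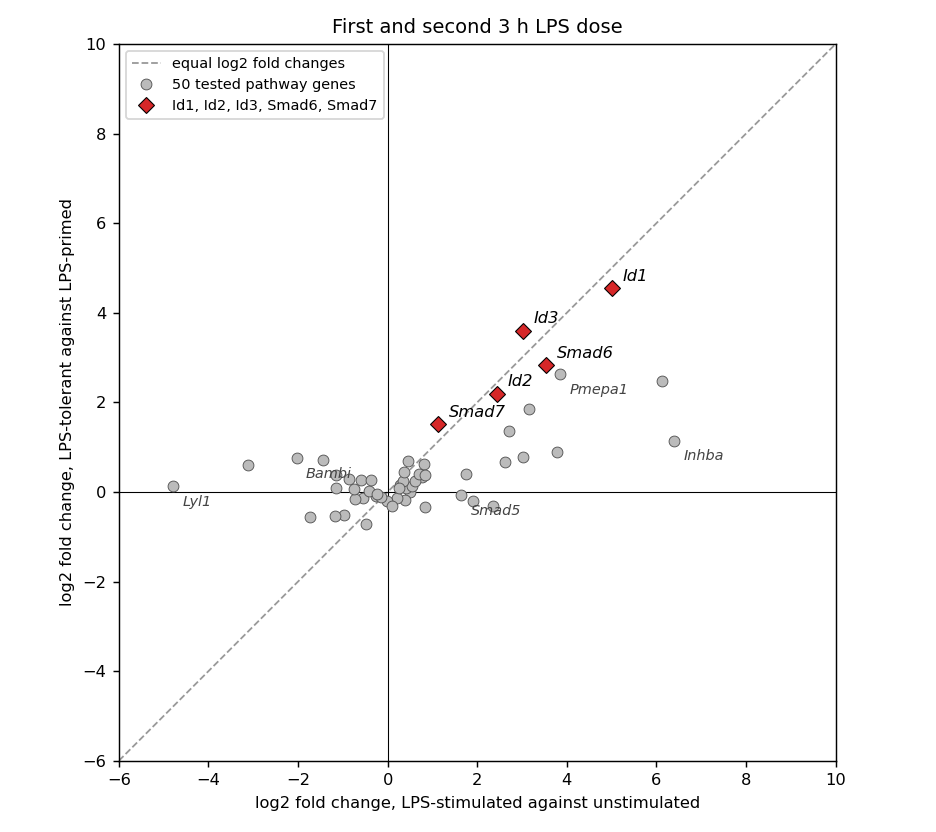
Log2 fold change of the second LPS dose (LPS-tolerant against LPS-primed) plotted against that of the first (LPS-stimulated against unstimulated) for Id1, Id2, Id3, Smad6 and Smad7 (red) and 50 of the 51 tested genes of the BMP and TGF-β pathways (grey); the dashed line marks equal values. The 5 genes lie near the line, and Lyl1 lies far from it, near 0 on the vertical axis.

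Carboplatin itself was compared within each LPS state. In LPS-primed BMDMs Id1 was higher with the drug by a log2 fold change of 1.61 (SE 0.54, or 3.04-fold), and the 3 pairs gave 1.64, 1.89 and 1.59. With the replicate block the 95% interval for Id1 ran from 0.599 to 2.575. Without carboplatin-treated replicate 1 the fitted value was 1.11, and without LPS-primed replicate 1 it was 2.13. It was the only one of the 5 beyond 2-fold, against 4.86% of all tested genes, and it ranked 45 of 11305. The groups just met, at 16.92 normalised read counts in the lowest carboplatin sample and 16.93 in the highest without it, and the values rest on 4 to 39 reads. Smad7 was 0.71 higher (SE 0.41), in 3 of 3 pairs, with overlapping groups. With the replicate block its 95% interval ran from 0.00014 to 1.47, a lower bound too near 0 to settle the sign. Id3 (0.52, SE 0.34) and Smad6 (0.25, SE 0.36) had pairs of both signs, and Id2 was at −0.14 (SE 0.28), lower in 3 of 3 pairs with overlapping groups.

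In LPS-tolerant BMDMs none of the 5 was beyond 2-fold with carboplatin, against 4.97% of all tested genes. Id3 had the largest value, 0.55 (SE 0.27), from pairs at 0.90, 0.80 and −0.01 on the log2 scale. With the replicate block its 95% interval ran from 0.08 to 1.03, a lower bound near 0, and those of the other 4 genes spanned 0. The values for Id1 (0.33, SE 0.39) and Smad7 (0.30, SE 0.38) were positive in 3 of 3 pairs and that for Id2 (−0.17, SE 0.28) negative in 3 of 3, with overlapping groups in each case. Smad6 was at 0.15 (SE 0.33). No group pair of any of the 5 was free of overlap in either carboplatin comparison, where 5.2% and 7.68% of all tested genes were higher and lower without overlap in LPS-primed, and 5.25% and 6.12% in LPS-tolerant BMDMs. The carboplatin effect on Id1 was 1.28 lower in LPS-tolerant than in LPS-primed BMDMs (log2 difference −1.28, SE 0.66, 95% interval from −2.58 to 0.03; −1.26 with the replicate block, interval from −2.42 to −0.09), and the 3 same-numbered sets of samples gave −1.34, −1.56 and −1.22. The upper bound with the block, at −0.09, is also too near 0 to settle the sign. Id1 was the only one of the 5 beyond 1, against 4.61% of all tested genes. For the other 4 genes this difference was within 0.41 of 0.

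**Figure D5:**
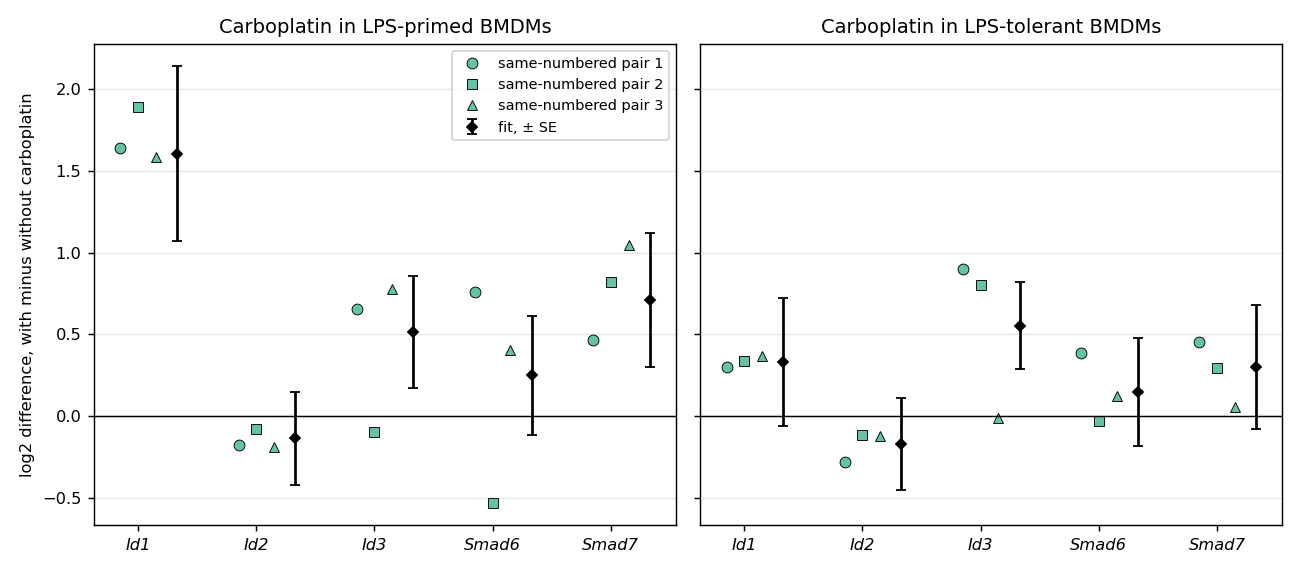
Log2 difference of the 5 genes with minus without carboplatin in LPS-primed (left) and LPS-tolerant BMDMs (right), for each same-numbered pair of samples and from the fit with its standard error. The 3 pairs of Id1 lie between 1.59 and 1.89 in LPS-primed and between 0.30 and 0.37 in LPS-tolerant BMDMs.

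A list of 100 other genes of the BMP and TGF-β pathways, chosen by pathway membership with earlier results of these data known, was read with the test, edgeR's quasi-likelihood F test with Benjamini-Hochberg adjustment over all 11305 genes. Of them 51 passed the filter. Most ligands did not: 25 of 31 were left out, among them Bmp2 with at most 15 reads in a sample, Bmp4 with at most 5 and Bmp6 with at most 2. Of those kept, Tgfb1, named after its values were seen, had group means between 2734 and 3945 normalised read counts. It rose with the single dose (log2 fold change 0.37, adjusted p = 0.0418 by edgeR). For the second dose it passed by DESeq2 (0.45, adjusted p = 0.0411) and with the replicate block (0.45, adjusted p = 0.0048 by edgeR). In LPS-primed against unstimulated BMDMs 10 of the 51 rose and 10 fell (20, against 25.2% of all tested genes past the test), and their median log2 fold change was 0.08, against −0.02 over all tested genes. In LPS-stimulated against unstimulated BMDMs 16 rose and 8 fell (51.2% of all tested genes passed), with a median of 0.34 against −0.09. With the replicate number as a block, 24 rose and 13 fell in the latter comparison, and 11 rose and 16 fell with priming. Scaled by library size alone, which put the median of all tested genes at −0.26 for priming and −0.43 for the single dose, 8 were higher and 16 lower after priming, and 12 higher and 15 lower after the single dose.

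Of the 5 tested signal-transducing SMADs, Smad2 and Smad5 rose with the single dose, Smad2 by a log2 fold change of 0.62 (adjusted p = 0.00301 by edgeR, named after its values were seen). Smad1, which carries BMP signals, passed in no comparison and had means between 130.8 and 193.1 normalised read counts over the 6 groups; with the replicate block it was lower after priming (log2 fold change −0.45, adjusted p = 0.042 by edgeR) and after the single dose (−0.42, adjusted p = 0.0379 by edgeR). Smad4, the common partner, passed in no comparison with or without the block, with means between 423.9 and 513.0. Smad5 went from 55.0 ± 28.7 to 172.7 ± 48.1 (log2 fold change 1.65, SE 0.40, adjusted p = 0.00238 by edgeR), and was below that level in LPS-tolerant BMDMs (log2 fold change −1.54, SE 0.40, adjusted p = 0.0059 by edgeR). Smad3 in LPS-tolerant BMDMs was above its LPS-stimulated level (log2 fold change 1.97, adjusted p = 0.0194 by edgeR), and with the replicate block it was lower after the single dose (−1.31, adjusted p = 0.0182 by edgeR). Of the E proteins that ID proteins bind, Tcf4 and Tcf12 fell with priming (log2 fold changes −0.93 and −0.95, adjusted p = 0.0184 and 0.0316 by edgeR) and Tcf3 with the single dose (−0.75, adjusted p = 0.00501). Tcf4 in LPS-tolerant BMDMs was below its LPS-stimulated level (−1.17, adjusted p = 0.00342 by edgeR). With the replicate block Tcf3 also passed for priming (−0.52, adjusted p = 0.0275), Tcf12 for the single dose (−0.74, adjusted p = 4.82e-05) and Tcf4 for the second dose (−0.69, adjusted p = 0.0358), all lower. Lyl1, a haematopoietic helix-loop-helix factor, fell from 815.7 ± 61.7 in unstimulated to 168.6 ± 73.8 in LPS-primed and 30.5 ± 15.4 in LPS-stimulated BMDMs (adjusted p = 4.04e-05 and 1.98e-08 by edgeR).

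Pmepa1 and Bambi are further feedback genes of these receptors. Pmepa1, a membrane protein that sequesters receptor-activated SMADs, rose with the single dose (log2 fold change 3.86, SE 0.56, adjusted p = 2.68e-05 by edgeR) and with the second dose (2.63, SE 0.57, adjusted p = 0.01 by edgeR). It was the only one of the 51 to pass in LPS-tolerant against LPS-primed BMDMs, where 6.31% of all tested genes passed and the median was 0.15 against −0.01; none fell (2 of the 51 at an unadjusted p under 0.05), 4 passed with DESeq2, and with the replicate block 8 did, 6 higher and 2 lower. Without LPS-primed replicate 3 none passed. Bambi, a decoy receptor, fell with the single dose (log2 fold change −2.03, SE 0.37, adjusted p = 0.000243 by edgeR) and with priming (−0.98, adjusted p = 0.0492), opposite in sign to Smad6 in both. With the replicate block it was higher after the second dose under carboplatin (1.15, adjusted p = 0.0423 by edgeR). Between LPS-tolerant and LPS-stimulated BMDMs 8 of the 51 were higher and 12 lower in the former (34.5% of all tested genes passed), with Lyl1 (2.64) and Bambi (1.80) among the former and Tgfbr1 (−2.41) and the ubiquitin ligase gene Nedd4l (−2.14) among the latter.

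Among ligands, receptors and other targets, Inhba, which encodes the activin A subunit, had 2 reads in all over the unstimulated samples and 204 over the LPS-stimulated ones, a ratio of 104.1 (95% exact counting interval 28.5 to 865.6), and in LPS-primed BMDMs the ratio was 149.2 (40.9 to 1238). Ltbp2, a TGF-β-binding protein family member, rose with priming (log2 fold change 2.91, adjusted p = 0.00812 by edgeR), while the ubiquitin ligase gene Wwp1 (−2.25, adjusted p = 0.00107) and the type I receptor gene Tgfbr1 (−1.94, adjusted p = 0.0191) fell. Gdf9 had 30 reads over the unstimulated and 3 over the LPS-stimulated samples, a ratio of 9.80 (95% exact counting interval 3.05 to 50.2). These intervals cover counting error only.

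Carboplatin was read at the study's adjusted p limit of 0.25. Nedd4l fell in LPS-primed BMDMs (log2 fold change −1.10, SE 0.19, adjusted p = 0.00864 by edgeR), the only one of the 51 to pass (1.2% of all tested genes did); with DESeq2 2 passed and with the replicate block 3. By edgeR without the block none rose, with 2 of the 51 higher at an unadjusted p under 0.05. The added calls were higher with the drug: Tob1 by DESeq2 (0.60, adjusted p = 0.071), and Tob1 (0.60, adjusted p = 0.09 by edgeR) and Skil (0.59, adjusted p = 0.0243 by edgeR) with the block. In LPS-tolerant BMDMs Nedd4l fell (−0.71, adjusted p = 0.135 by edgeR) and Tob1, an antiproliferative SMAD-binding gene, rose (0.75, adjusted p = 0.106 by edgeR), the 2 of the 51 that passed (1.65%); without LPS-tolerant replicate 2, or without carboplatin-treated replicate 2, none did. The second dose under carboplatin passed for Pmepa1 (2.72, adjusted p = 0.0185 by edgeR) and the ubiquitin ligase gene Smurf1 (0.68, adjusted p = 0.00999 by edgeR), 2 of the 51 against 1.98% of all tested genes, with 5 by DESeq2, 9 with the replicate block, 1 without replicate 2 of either group and none without LPS-primed with carboplatin replicate 3. Medians of the 51 in these 3 comparisons were 0.01, 0.03 and 0.20, against 0.01, 0.01 and −0.01 over all tested genes. For the difference of the 2 carboplatin effects none of the 51 and 0.0% of all tested genes passed by edgeR; none of the 51 passed by DESeq2 or with the block. At an unadjusted p under 0.05 the counts were 0 by edgeR, 0 by DESeq2 and 1 with the block.

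The genes whose levels followed each of the 5 most closely were ranked by Pearson's r of log2 counts scaled to library size over the 18 samples, given as a description because the samples share 6 groups. Closest to Id1 were the translation initiation factor genes Eif1 (r = 0.97) and Eif4a1 (0.946) and, between them, Micall1 (0.955). Eif1 went from a mean of 1927 normalised read counts in unstimulated to 4740 after the single dose and 4659 after both, a far smaller span than that of Id1. Id2 had Wsb2 (0.958), Eif4a1 (0.957) and Dda1 (0.948) closest, and Id3 had the GTPase gene Rhob (0.946), Igsf11 (0.932) and Myc (0.92). Myc, as Id3, had a higher mean after the single dose (1533) than after both (571.9). For Smad6, Tmeff1 (0.944) and Prokr1 (0.935) were among the closest, and both had higher means after both doses than after the single one, as Tmeff1 with 404.7 and 203.3. Smad7 had lower values, with Micall1 (0.905), Mmp10 (0.896) and Srxn1 (0.892). Eif4a1 stood in the lists of both Id1 and Id2, and Micall1 in those of Id1 and Smad7.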

How the data were processed

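RNA of BMDMs was sequenced as stranded, poly(A)-selected paired-end libraries, 18 samples in 6 groups of 3. The authors mapped reads to GRCm39 with HISAT2 and deposited HTSeq read counts per gene for each sample, without normalization; versions, annotation and strand setting are not given in the sources used here. Rows that name no gene were left out of library sizes and tests: no-feature pairs were 26.5% to 33.1% of a file. The depth of 6869667 to 14708099 pairs on genes leaves genes with few reads, Id1 without a recent dose above all, with wide counting error.

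Counts of 11305 genes passing filterByExpr (minimum count 10, total 15) were fitted with edgeR 4.0.16 (R 4.3.3), using its quasi-likelihood F test, TMM size factors, a mean per group and all 18 samples sharing 1 estimate of the spread. Normalised read counts are counts scaled to the mean effective library; RPKM divides them by annotated exon length. Standard errors are the absolute log2 fold change over the square root of F, and fold changes use a prior count of 0.125; differences of same-numbered pairs are of log2 normalised read counts with nothing added. Adjusted p limits were 0.05, and 0.25 for carboplatin, as in the study. The fit was tested on simulated data for LPS-stimulated against unstimulated BMDMs (11153 genes): 82% of genes raised and 78% of genes lowered by 2 on the log2 scale passed, 42.9% and 34.7% at 1, and 0.073% of unchanged genes. Only 49 or 50 genes were changed at each size and direction, whereas 51.2% of all tested genes passed in the real comparison. The shares therefore do not give the power of that comparison.

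The 5 genes and the pathway and marker lists were chosen with earlier results of these data known. Named pathway genes were the 3 largest changes in each direction past the test in a comparison, together with Smad1, Smad5, Smad4, Tcf3, Tcf4, Tcf12, Id4 and Bambi; the 3 most alike genes were named for each of the 5. A few genes that these rules or the lists name are not reported here. Samples of the same number deviated together from the means of their groups (mean r 0.35, lowest 0.063, over 0.1 in 44 of 45 pairs of groups and numbers), so the numbers were read as pairs for blocked fits. The lowest was LPS-primed against LPS-stimulated, which is no comparison here. Standard errors and intervals of the 5 genes come from the fit without the block unless the block is named. Alternatives were RLE size factors, library size alone, no filter, DESeq2 1.42.0, the compared samples alone, the replicate block, each sample left out, a prior count of 2 and a log2 limit of 2. Nothing says that the biological replicates came from separate mice, so p-values measure the spread between these samples.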

Additional observations from a re-analysis of the deposited data

Results flagged for a closer look

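The response to the second LPS dose (LPS-tolerant against LPS-primed) differed from that to the first (LPS-stimulated against unstimulated) for 15 of the 51 tested pathway genes by the edgeR test of the difference itself, 9 with a lower and 6 with a higher log2 fold change at the second dose (10 and 11 with the replicate block), where 23.8% of all tested genes passed. None of Id1, Id2, Id3, Smad6 and Smad7 had a difference beyond 1.

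The second log2 fold change minus the first was, among those lower, −5.26 for Inhba, −2.88 for Ltbp2, −2.68 for Acvr1b, −2.24 for Skil, −2.11 for Tgfbi, −1.96 for Acvr2a, −1.73 for Smad5 and −1.35 for Smurf1. It was 4.92 for Lyl1, 3.72 for Gdf9, 2.79 for Bambi, 1.52 for Ski, 1.23 for Tob1 and 0.82 for Tcf3. The values for Inhba, with at most 1 read in an unstimulated sample, and Gdf9, with at most 3 in an LPS-stimulated one, depend on the prior count of the fit. Priming alone had already raised Inhba, from a mean of 0.62 to 86.5 normalised read counts. Its mean was 60.5 ± 17.7 after the single dose and 194.2 ± 174.9 after both. That difference passed the test (log2 fold change 1.66, adjusted p = 0.0485 by edgeR). The lower second response of Inhba was therefore not a lower level after both doses.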

How the results depend on the processing

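The log2 fold changes of Id1, Id2, Id3, Smad6 and Smad7 moved by less than the spread between replicates in all 314 values under other settings, and in 806 of 810 with a sample left out. The other 4 were Smad6 in LPS-primed against unstimulated BMDMs and Id1, Id3 and Smad6 in the second minus the first response, given above. With a sample left out this limit is wide, since the mean of 3 samples can seldom move that far. The 806 therefore say little about stability, and Id1 after priming went from 0.25 to 1.76 within the limit. With library size alone the median log2 fold change of all tested genes shifted to −0.26 for priming, −0.43 for the single dose, −0.11 for the second dose and 0.30 for the second minus the first response. Id1 did not pass the filter when LPS-primed and unstimulated samples were fitted alone. Depth limits Id1 most, with 1 to 16 reads in unstimulated and LPS-primed samples.

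Of the 5 genes, 1 was beyond 2-fold after priming with a prior count of 2. With each sample left out, 1 to 3 were beyond 2-fold after priming (1 without unstimulated replicate 2 or LPS-primed replicate 1), 4 to 5 after the single dose, 1 in LPS-tolerant against LPS-stimulated, 5 for the second dose, 1 to 2 for carboplatin in LPS-primed (2 without LPS-primed replicate 1), 0 in LPS-tolerant, 4 to 5 for the second dose under carboplatin, 0 to 1 for the second minus the first response (1 without unstimulated replicate 1 or 2 or LPS-stimulated replicate 1) and 0 to 1 for the difference of carboplatin effects (0 without LPS-primed replicate 2 or LPS-primed with carboplatin replicate 1).

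Pathway genes past the test numbered 5 (priming), 11 (single dose), 4 (LPS-tolerant against LPS-stimulated), 0 and 0 (carboplatin in LPS-primed and LPS-tolerant), 1 (second dose under carboplatin) and 9 (second minus first) with the limit of 2 on the absolute log2 fold change. With the replicate block they numbered 37 for the single dose, 8 for the second dose, 3 for carboplatin in LPS-primed and 9 for the second dose under carboplatin, and no other total moved by over 1.5 times under the block. DESeq2 gave 4 for the second dose, 2 for carboplatin in LPS-primed and 5 for the second dose under carboplatin. With only the compared samples fitted there were 1 for carboplatin in LPS-tolerant and 0 for the second dose under carboplatin. The causes were not tested. With a sample left out the counts were 11 to 21 for priming (11 and 13 without unstimulated replicates 2 and 3, 12 without LPS-primed replicate 1), 20 to 28 for the single dose, 17 to 21 for LPS-tolerant against LPS-stimulated, 0 to 2 for the second dose (2 without unstimulated replicate 1, 0 without LPS-primed replicate 3), 1 to 2 for carboplatin in LPS-primed (2 without LPS-stimulated replicate 1 or 3), 0 to 2 for carboplatin in LPS-tolerant (0 without replicate 2 of either group, 1 without LPS-tolerant replicate 3 or carboplatin-treated replicate 1 or 3), 0 to 3 for the second dose under carboplatin (0 without LPS-primed with carboplatin replicate 3, 1 without replicate 2 of either group), 11 to 15 for the second minus the first response and 0 for the difference of carboplatin effects.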
